A study of Mus musculus with 36 samples.

Results

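The genes described here are 9 adhesion and migration genes of pre-B cells, Itga4, Itga5, Itga6, Itgb1, Ptk2, Cd44, Cxcr4, Ctnnd1 and Cd9, through the open chromatin in and around them. The genes were chosen by function, with earlier results of these data known. Of the 52788 DNase I hypersensitive sites (DHS, stretches of chromatin that the enzyme DNase I cuts readily) in the deposited table, 36 overlapped the body of such a gene (GENCODE vM21 annotation, mm10) or the 10 kb on either side of it. These 36 members were 2 DHS of Itga4, 5 of Itga5, 9 of Itga6, 4 of Itgb1, 4 of Ptk2, 5 of Cd44, 3 of Cxcr4, 3 of Ctnnd1 and 1 of Cd9, numbered below from the 5′ end of each gene.

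DNase-seq was performed on B3, a mouse pre-B cell line, in 36 libraries that form 12 groups of 3 replicates. Ikaros cells were B3 cells transduced with an MSCV retroviral vector for HA-Ikaros-ERt2-IRES-GFP, in which the transcription factor Ikaros is fused to a hormone-binding domain and enters the nucleus when 4-hydroxytamoxifen (4-OHT) is given. Control cells were B3 cells with the empty vector. Both lines were sampled at 0, 2, 6, 12, 18 and 24 h with 4-OHT at 0.5 µM. The study's methods state that the 0 h cells received no drug and were collected separately, whereas the labels list it for every sample. All groups thus share the B3 background, and from 2 h on they share the drug. The whole study rests on 1 cell line with 1 transduced population of each kind, and the fusion protein itself cannot be seen in these data.

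Integrins are pairs of an alpha and a beta chain that tie a cell to the matrix and to other cells, and the beta chain Itgb1 joins the alpha chains Itga4, Itga5 and Itga6. Ptk2, the focal adhesion kinase, passes the signal of bound integrins on to the actin skeleton, while Cd44 binds hyaluronan and Cxcr4 is the receptor for the chemokine Cxcl12 that holds B cell precursors in the bone marrow. Pre-B cells depend on contact with marrow stroma until they differentiate, and Ikaros is known to restrain that contact.

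The values are log2 of normalised DNase-seq density per length, so DHS of different width can be set side by side. Library medians over all DHS lay between 3.90 and 4.11. The depth of single libraries was not used here, so no counting interval is given and the number of libraries limits the precision. As a check of the cell type, 9 pre-B marker genes had a promoter DHS (within 1000 bp of a start), among them Cd79a, Pax5 and Ebf1, whereas Rag2 and Dntt had none. Promoter DHS were found for 2 of 8 T cell markers, 1 of 6 myeloid markers, 1 of 4 erythroid markers and 2 of 6 stromal markers. The summed pre-B level ranged from 8.16 to 8.61 in Ikaros libraries and from 8.19 to 8.82 in Control libraries. The stromal sum ranged from 4.85 to 5.41 and from 4.36 to 5.51.

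The sequences of 8 members are shown because the results turn on them. They are printed 5′ to 3′ on the strand of the gene and come from GRCm38, the RefSeq assembly that corresponds to mm10. The table does not state whether starts count from 0 or 1, which leaves 1 base open at the 5′ or 3′ edge. Capitals mark matches, on either strand, to any of 4 patterns, namely TGGGAA (Ikaros core), AGGAAG (ETS core), TGTGGT (RUNX core) and CAGCTG (an E-box). TGGGAA and AGGAAG share the letters GGAA and may share an end base, but no 2 matches overlap in the sequences printed here. The 3 DHS that differed most clearly between the lines from 2 h to 24 h were Itga5 DHS 1 (intron, chr15:103361398-103361578), Cd44 DHS 2 (intron, chr2:102885424-102885580) and Cd44 DHS 5 (beyond the 3′ end of Cd44, the central 300 bases of the DHS, chr2:102804089-102804388), all on the minus strand.
Itga5 DHS 1: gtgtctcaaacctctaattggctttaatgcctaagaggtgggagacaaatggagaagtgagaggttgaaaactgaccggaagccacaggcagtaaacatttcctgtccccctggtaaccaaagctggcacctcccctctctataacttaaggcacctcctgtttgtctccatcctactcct
Cd44 DHS 2: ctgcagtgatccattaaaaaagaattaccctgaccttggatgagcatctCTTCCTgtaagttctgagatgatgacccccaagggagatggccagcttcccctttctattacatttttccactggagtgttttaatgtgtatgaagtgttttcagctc
Cd44 DHS 5: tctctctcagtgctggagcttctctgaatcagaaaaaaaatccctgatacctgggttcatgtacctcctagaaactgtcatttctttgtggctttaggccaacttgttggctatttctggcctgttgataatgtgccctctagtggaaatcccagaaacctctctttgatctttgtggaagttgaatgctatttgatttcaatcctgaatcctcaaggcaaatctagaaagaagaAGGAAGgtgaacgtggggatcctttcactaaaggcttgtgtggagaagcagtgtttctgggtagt
Itga5 DHS 1 held none of the 4 patterns. Of all DHS within 10% of its length, 15.3% held the Ikaros core, 37.7% the ETS core, 25.9% the RUNX core and 17.8% the E-box. Cd44 DHS 2 held the ETS core once, as 28.4% of DHS near its length did.

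A further 4 members are shown because the lines differed there in at least 1 comparison. They are Ptk2 DHS 2 (intron, the central 300 bases, chr15:73311005-73311304, minus strand), Itga6 DHS 6 (intron, chr2:71816900-71817035, plus strand), Itga6 DHS 8 (intron, chr2:71852312-71852442, plus strand) and Cd9 DHS 1 (upstream of Cd9 in an intron of Gm26728, chr6:125498301-125498437, minus strand). The remaining sequence is from Itga4 DHS 1, the only member promoter called lower in Ikaros cells, namely the 300 bases before the start of the gene (chr2:79255126-79255425, plus strand).
Ptk2 DHS 2: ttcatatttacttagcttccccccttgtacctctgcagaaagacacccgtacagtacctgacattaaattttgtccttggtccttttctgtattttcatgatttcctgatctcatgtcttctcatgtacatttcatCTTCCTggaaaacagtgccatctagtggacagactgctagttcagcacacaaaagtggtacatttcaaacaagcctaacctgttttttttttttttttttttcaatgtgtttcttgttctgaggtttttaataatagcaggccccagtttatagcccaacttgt
Itga6 DHS 6: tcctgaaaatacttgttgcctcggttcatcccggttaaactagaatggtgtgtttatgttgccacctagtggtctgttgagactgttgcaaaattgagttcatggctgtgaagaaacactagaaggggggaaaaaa
Itga6 DHS 8: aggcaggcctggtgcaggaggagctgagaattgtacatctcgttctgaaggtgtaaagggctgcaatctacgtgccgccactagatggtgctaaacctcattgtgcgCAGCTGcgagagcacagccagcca
Cd9 DHS 1: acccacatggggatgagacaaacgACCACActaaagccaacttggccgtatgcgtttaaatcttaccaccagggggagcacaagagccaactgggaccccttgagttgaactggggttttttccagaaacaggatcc
Itga4 DHS 1: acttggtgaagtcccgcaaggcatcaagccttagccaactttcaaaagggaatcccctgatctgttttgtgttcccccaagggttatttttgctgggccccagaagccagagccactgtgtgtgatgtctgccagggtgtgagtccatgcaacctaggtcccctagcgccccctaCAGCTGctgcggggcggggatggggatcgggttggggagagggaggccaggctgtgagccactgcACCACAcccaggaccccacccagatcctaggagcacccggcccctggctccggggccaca
Over whole DHS, the ETS core was found in 21 of 36 members (58.3%, against 42.9% of all 52788 DHS), the RUNX core in 11 (30.6%, against 28.4%) and the E-box in 7 (19.4%, against 21.1%). The Ikaros core was found in 10 members (27.8%, against 26.7%), and in 0 of the 17 members at most 200 bp wide against 12.4% of all DHS of that width. Cd44 DHS 5, Ptk2 DHS 2 and Itga4 DHS 1 each held the Ikaros core once, outside the bases printed here. Of DHS near their length, 38.7%, 38.7% and 63.2% held it. Such a match describes the letters and is neither a site nor a cause.

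By position, 22 members were intronic, 7 sat at promoters, 3 in exons and 4 outside any gene. Introns held 61.1% of members against 35.4% of all DHS, and promoters 19.4% against 25.9%. The widths fell into a narrow and a broad class, with 17 members at most 200 bp wide. The promoter DHS belonged to Itga4, Itga6, Itgb1 (a pair), Cd44 and Cxcr4, and the last, Ctnnd1 DHS 1, is at the start of the neighbouring gene Btbd18. Itga5, Ptk2, Ctnnd1 and Cd9 had no promoter DHS of their own in the table. Itga5 DHS 5 lies beyond the 3′ end of its gene and 2267 bp from a start of Zfp385a, so it cannot be assigned to Itga5 by position alone.

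Averaged over its DHS and all 36 libraries, the level of a gene ranged from 3.40 ± 0.35 for Cd44 (SD, n = 36 libraries) to 4.17 ± 0.36 for Itga5 (SD, n = 36 libraries). The other means lay at 4.12 for Itga4, 4.09 for Cxcr4, 4.02 for Ctnnd1, 3.98 for Cd9, 3.96 for Itga6, 3.93 for Ptk2 and 3.62 for Itgb1. From Itga5 down to Ptk2, neighbours in this order differed by less than their SD over libraries, whereas the step from Ptk2 (SD 0.24) to Itgb1 (SD 0.20) was larger than either SD. Among promoters, Itga4 DHS 1 had the highest mean level (4.79, higher than 60.5% of all promoter DHS). Cxcr4 DHS 2 followed at 4.45, Cd44 DHS 1 at 4.25, Itga6 DHS 3 at 3.87, Itgb1 DHS 2 at 3.75 and Itgb1 DHS 1 at 3.73. The promoter pair of Itgb1 thus lay low, above no more than 14.9% of promoter DHS, although Itgb1 is the shared partner of the 3 alpha chains. The highest member of all was Itga5 DHS 5 at 4.85, and the lowest was Cd44 DHS 4 at 2.84, above only 2.50% of all DHS.

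**Figure D1:**
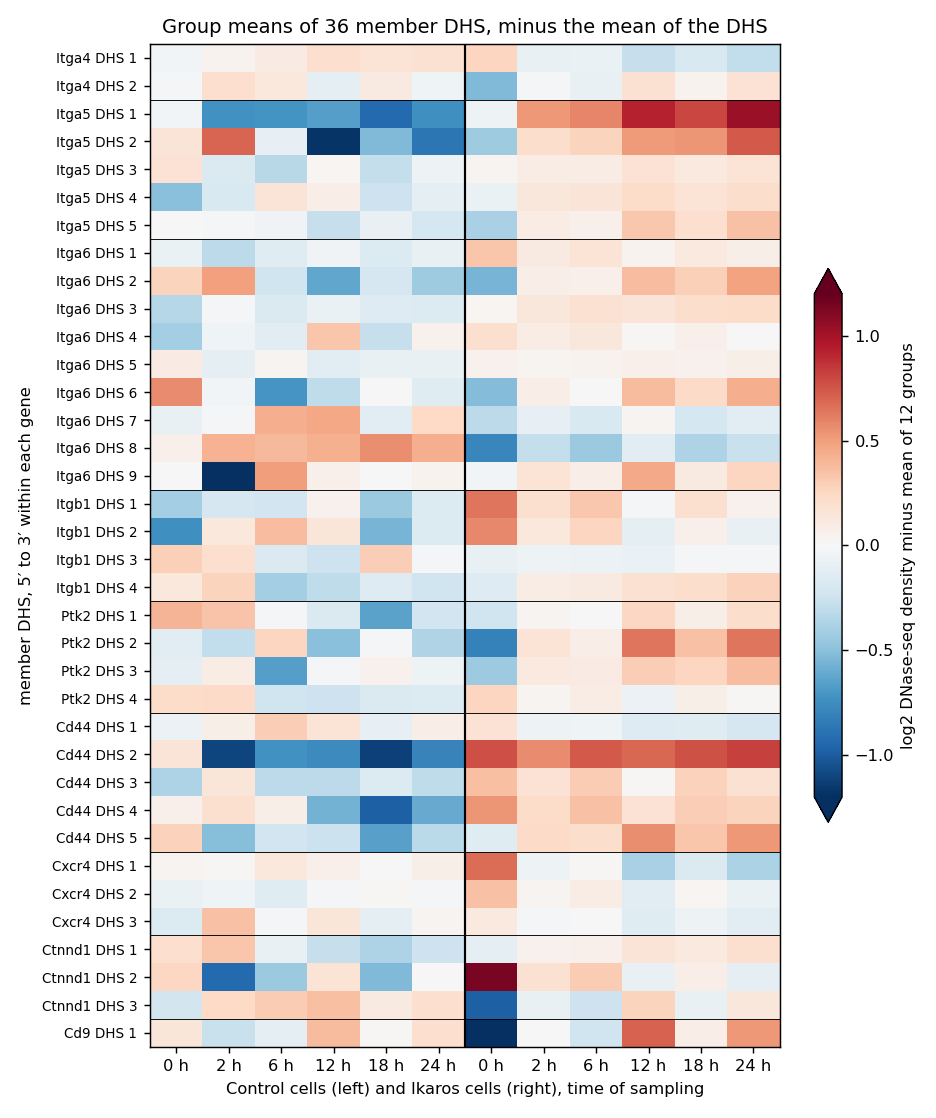
Mean log2 DNase-seq density of each of the 36 members in each of the 12 groups (n = 3 libraries each), minus the mean of that DHS over the groups, with Control cells on the left and Ikaros cells on the right. Itga5 DHS 1 and Cd44 DHS 2 are below their own mean in Control cells at every time from 2 h and above it in Ikaros cells, whereas Itgb1 DHS 1 and 2 and Cd9 DHS 1 stand apart mainly at 0 h.

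The question of whether the lines differed under the drug was addressed by the mean of the 5 line differences from 2 h to 24 h, tested with limma and adjusted over all DHS (Benjamini-Hochberg, two-sided, threshold 0.05). Of the 36 members, 16 passed, against 29.5% of all DHS. In 14 of them the density was higher in Ikaros cells (17.1% of all DHS) and in 2 it was lower (12.4% of all DHS). The median difference was 0.25 over the members and 0.04 over all DHS, and higher density was found at 8 of 22 members in introns (20.4% of all intronic DHS) and 2 of 4 between genes (18.8% of all such DHS). The largest differences among members were those of Itga5 and Cd44. Calls at 5 members (Itga5 DHS 1 and 2, Cd44 DHS 2 and 5 and Ptk2 DHS 2) held under each alternative that kept the member (Cd44 DHS 2 and 5 are among the lowest 25% of DHS by level and were not in the fit without those, and Cd44 DHS 5 lies outside the gene body), and between 7 and 10 members passed when a replicate number was left out of every group, and between 12 and 16 when a single library was. The 5 times come from the same cells and batches of a line, and the authors' noise correction left the 12 group means spanning only 6 dimensions. The p-values measure the spread that remained between these libraries after that correction, which may be technical. They may therefore be too small, which was not tested. In a bulk sample a lower density in every cell and fewer cells with an open site cannot be told apart.

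**Figure D2:**
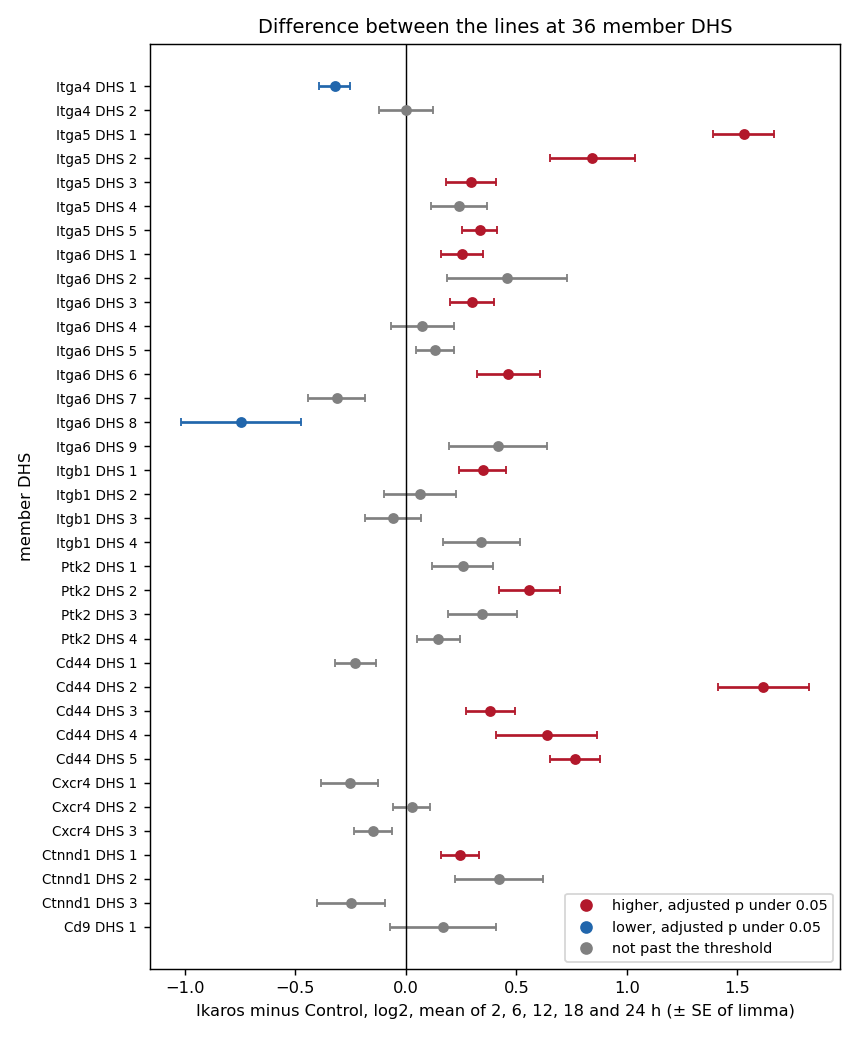
Ikaros minus Control difference on the log2 scale, averaged over 2, 6, 12, 18 and 24 h, for the 36 members (points) with the SE of the limma fit (bars). Red members were higher and blue members lower in Ikaros cells at an adjusted p under 0.05, and Itga5 DHS 1 (1.53) and Cd44 DHS 2 (1.62) are the farthest to the right.

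Itga5, the alpha chain of the fibronectin receptor, had the clearest difference at DHS 1, an intronic site 5.28 kb downstream of its start. In Control cells the 3 libraries (replicates 4, 5 and 6) read 3.93, 3.86 and 3.53 at 0 h and 3.18, 2.59 and 3.43 at 24 h. In Ikaros cells they read 3.74, 3.95 and 3.52 at 0 h and 4.88, 4.76 and 4.87 at 24 h. The lines therefore overlapped at 0 h and lay apart at 24 h, with a lower density in Control and a higher one in Ikaros cells. From 2 h to 24 h the 15 Control values had a lowest, median and highest value of 2.01, 3.16 and 3.61, and the 15 Ikaros values of 3.93, 4.69 and 4.94. No Ikaros value reached down to a Control value. The averaged difference was 1.53 ± 0.14 (SE, 15 against 15 libraries, limma adjusted p = 6.27e-09), a 2.88-fold higher density in Ikaros cells. Within the batches it was 1.44 for replicate 4, 1.49 for replicate 5 and 1.66 for replicate 6.

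The same intronic site was also the member called most often at single times. At 2 h no member passed (0 of 36, against 0.195% of all DHS, with 5 members at an unadjusted limma p under 0.05, as were 10.0% of all DHS), and Itga5 DHS 1 had the smallest p, with a difference of 1.25 ± 0.31 (adjusted p = 0.0809). At 6 h it was the only member called (1 of 36, against 0.578% of all DHS), with a difference of 1.31 ± 0.31 (limma adjusted p = 0.0409). That call was lost in 11 of 15 alternatives, among them the replicate block (limma adjusted p = 0.0581) and only the groups compared (0.138). Leaving out any single library of the 6 h groups ended it as well (0.0522 to 0.216). At 12 h Itga5 DHS 1 was 1 of 2 members called (against 1.31%), at 18 h 1 of 2 (against 0.699%), and at 24 h the only one (1 of 36, against 1.33%), where the difference was 1.77 ± 0.31 (limma adjusted p = 0.00384, 3.41-fold). All 6 single-time counts rest on 3 libraries a group, and the 24 h call was lost when any of replicates 4, 5 or 6 was left out of every group (adjusted p = 0.0539 to 0.147).

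The other Itga5 sites differed less. Itga5 DHS 2, an intronic site 11.2 kb downstream of the start, read 2.42, 1.52 and 3.37 in Control cells at 12 h and 3.75, 4.14 and 4.47 in Ikaros cells, groups that do not overlap. The 12 h difference was 1.69 ± 0.43 (limma adjusted p = 0.0444). That call was lost in 13 of 15 alternatives, among them the replicate block (0.0521), quantile normalization (0.117) and trends removed (0.229). Leaving out any replicate number ended it as well (0.114 to 0.387). At 2 h the lines overlapped, with 4.76, 4.69 and 3.48 in Control and 3.73, 3.95 and 3.81 in Ikaros cells (difference -0.48 ± 0.43, adjusted p = 0.771). Over 2 h to 24 h the averaged difference was 0.84 ± 0.19 (limma adjusted p = 0.00162). Itga5 DHS 5 (0.33 ± 0.08, adjusted p = 0.00271, and 0.133 without replicate 4) and DHS 3 in an exon (0.29 ± 0.11, adjusted p = 0.0475) were higher in Ikaros cells as well, while DHS 4, an open site at a mean level of 4.78, did not pass (0.24 ± 0.13, adjusted p = 0.158). Averaged over its 5 sites, Itga5 ranged from 3.42 to 4.21 in Control libraries and from 4.22 to 4.77 in Ikaros libraries from 2 h on.

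Cd44, the hyaluronan receptor, had the other marked difference, at sites inside and beyond the gene, whereas its promoter did not pass. Cd44 DHS 2, 15.8 kb downstream of the start, read 3.37, 3.40 and 3.44 in Control cells at 0 h. At 24 h these cells read 2.61, 2.91 and 1.82, and Ikaros cells read 3.86, 4.11 and 4.22. The site thus read lower in Control cells at 24 h than at 0 h, whereas Ikaros cells, which read 4.72, 3.78 and 3.55 at 0 h, stayed within their 0 h range. The limma F-test called no change over time in Control cells at this site, and the 0 h cells were collected separately. From 2 h on the 15 Control values ran from 0.76 over a median of 2.61 to 3.42, and the 15 Ikaros values from 3.70 over 3.96 to 4.27. The averaged difference was 1.62 ± 0.21 (SE, 15 against 15 libraries, limma adjusted p = 1.60e-06, 3.07-fold). Within the batches it was 1.63, 1.10 and 2.12 for replicates 4, 5 and 6. Much of the spread lay in Control cells, whose SD between replicates was 0.86 against 0.18 in Ikaros cells.

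At single times Cd44 DHS 2 passed only at 18 h, when Control cells read 2.23, 2.63 and 1.52 and Ikaros cells 3.94, 4.13 and 3.96 (difference 1.88 ± 0.46, limma adjusted p = 0.0462). That call was lost without Control 18h replicate 4 (0.102), Control 18h replicate 6 (0.172) or any Ikaros 18h library (0.143 to 0.167). Cd44 DHS 5, 97.1 kb from the nearest start and beyond the 3′ end of the gene, had a lowest, median and highest value of 1.97, 2.80 and 3.20 in Control cells from 2 h on and of 3.25, 3.61 and 3.89 in Ikaros cells. Its averaged difference was 0.77 ± 0.11 (limma adjusted p = 1.32e-05, 1.70-fold), and the batches gave 0.75, 0.79 and 0.77. The neighbouring intronic sites Cd44 DHS 3 (0.38 ± 0.11, adjusted p = 0.00999) and DHS 4 (0.64 ± 0.23, adjusted p = 0.0347) were also higher. Cd44 DHS 4, the lowest member in level, ran from 0.56 to 3.59 in Control and from 2.59 to 3.49 in Ikaros cells, which overlap. Its SD between replicates was 0.95 in Control and 0.28 in Ikaros cells. The call at Cd44 DHS 3 was lost with quantile normalization (0.19, adjusted p = 0.164), with trends removed (0.16, adjusted p = 0.288) and without replicate 4, 5 or 6 (adjusted p = 0.06 to 0.0841). The promoter, Cd44 DHS 1, did not pass and its estimate was below 0 (-0.23 ± 0.09, adjusted p = 0.063). It was called lower in 5 of 39 alternatives, among them only the groups compared (limma adjusted p = 0.0203) and a spread per group (0.0393).

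Among the 36 members, 3 had 15 Ikaros values above all 15 Control values from 2 h to 24 h, namely Itga5 DHS 1, Cd44 DHS 2 and Cd44 DHS 5, against 0.368% of all DHS. None had all Ikaros values below (0 of 36, against 0.288% of all DHS). This way of counting was chosen after the values were seen. Control cells varied more between replicates than Ikaros cells at 35 of 36 members, as at 90.1% of all DHS, and at 17 of the 17 narrow members, as at 91.2% of all narrow DHS. The median SD between replicates from 2 h on was 0.38 in Control and 0.23 in Ikaros cells for the members.

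**Figure D3:**
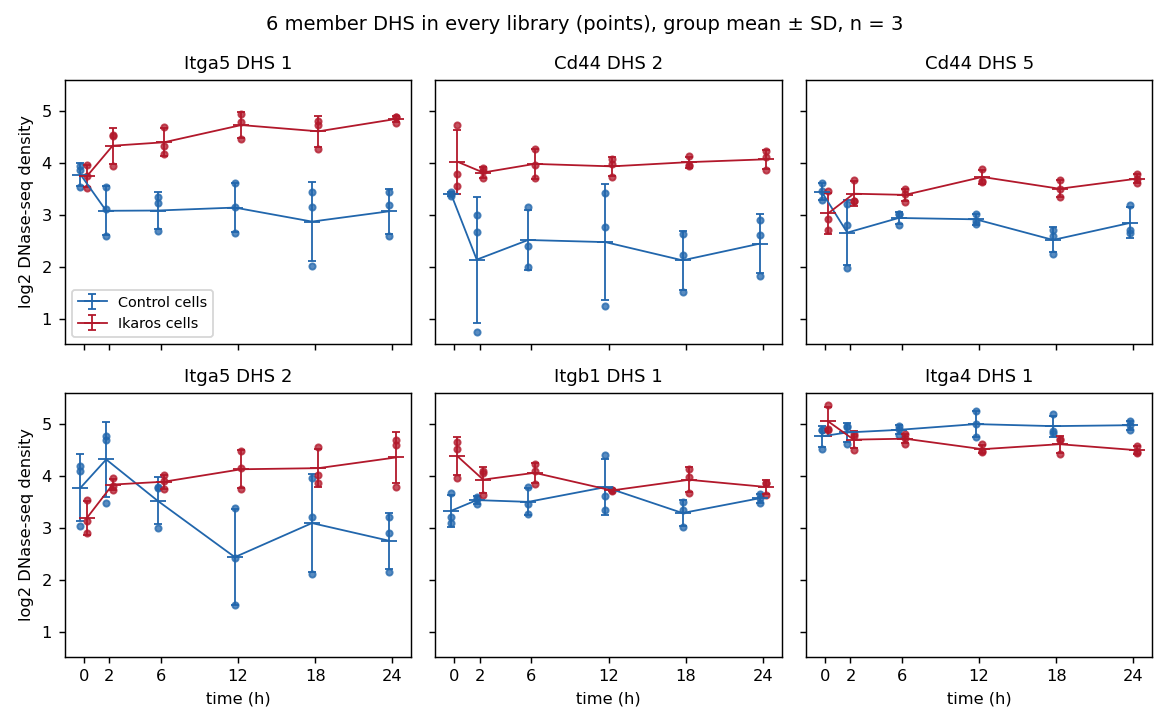
Log2 DNase-seq density against time in hours for 6 members, with a point for each library, and lines and bars for the group mean ± SD (n = 3). Control cells are blue and Ikaros cells red. The lines overlap at 0 h at Itga5 DHS 1 and lie apart from 2 h on, Itgb1 DHS 1 is separated most at 0 h, and Itga4 DHS 1 has no overlap between the lines from 12 h on, with Ikaros cells below.

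The alpha chain Itga4, which with Itgb1 forms a receptor for VCAM1 and fibronectin, had the only member promoter called lower in Ikaros cells. Over 2 h to 24 h, limma called 3 of the 7 promoter members higher and 1 lower. Among all promoter DHS, 11.3% were higher and 16.0% lower. The 3 include Ctnnd1 DHS 1, which is at the start of Btbd18. At 24 h Itga4 DHS 1 read 5.05, 4.88 and 4.98 in Control cells and 4.58, 4.46 and 4.43 in Ikaros cells. At 0 h it read 4.87, 4.52 and 4.88 in Control cells and 5.36, 4.88 and 4.89 in Ikaros cells. The Ikaros libraries were below all Control libraries at 12, 18 and 24 h and above them at 0 h. The averaged difference was -0.32 ± 0.07 (SE, 15 against 15 libraries, limma adjusted p = 0.00088, 1.25-fold lower), and replicates 4, 5 and 6 gave -0.22, -0.38 and -0.37. It did not pass without replicate 6 (adjusted p = 0.0508). At 24 h alone the difference was -0.48 ± 0.16 (adjusted p = 0.116). The intronic site Itga4 DHS 2 showed no difference beyond its error (0.00 ± 0.12).

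Itga6, the alpha chain of laminin receptors, had 9 sites, of which 3 were higher, 1 was lower and 5 did not pass. Its promoter, Itga6 DHS 3, ranged from 3.42 to 4.08 in Control and from 3.65 to 4.37 in Ikaros cells from 2 h on (difference 0.30 ± 0.10, limma adjusted p = 0.0224), and the call was lost with quantile normalization (0.0696), trends removed (0.0975) and without any replicate number (0.0618 to 0.204). The intronic Itga6 DHS 6 (0.46 ± 0.14, adjusted p = 0.0144, and 0.107 without replicate 5) and DHS 1, which lies before the gene body (0.25 ± 0.09, adjusted p = 0.0407), were higher as well. Itga6 DHS 8 was lower by 0.74 ± 0.27 (adjusted p = 0.0381), with values from 2.88 over a median of 4.13 to 4.69 in Control and from 2.48 over 3.01 to 3.95 in Ikaros cells, which overlap. The batches differed at this site, with -0.19 for replicate 4, -0.96 for replicate 5 and -1.09 for replicate 6.

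**Figure D4:**
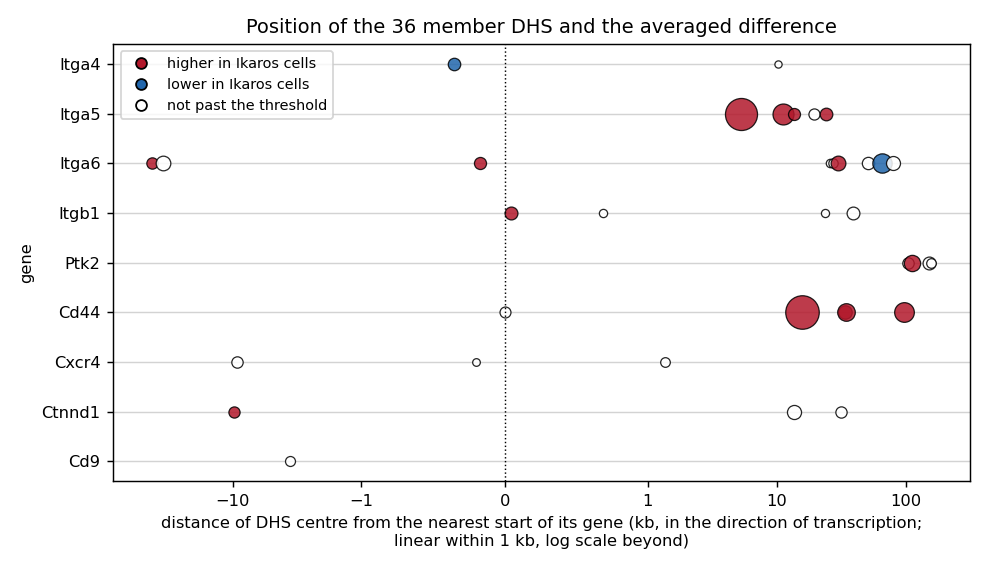
Distance of the centre of each of the 36 members from the nearest start of its gene, in kb in the direction of transcription (linear within 1 kb, log scale beyond), by gene. Symbol size grows with the absolute averaged difference, red and blue mark members higher and lower in Ikaros cells, and open symbols did not pass. The largest symbols are Itga5 DHS 1 and Cd44 DHS 2, both inside their gene at 5.28 kb and 15.8 kb.

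Itgb1, the shared beta chain, differed at its promoter, where DHS 1 was higher by 0.35 ± 0.11 (limma adjusted p = 0.0134). That call was lost with quantile normalization (adjusted p = 0.0848), with trends removed (0.378), without replicate 5 (0.0952) and without replicate 6 (0.114). The adjacent DHS 2 did not pass (0.06 ± 0.16, adjusted p = 0.799). The intronic sites Itgb1 DHS 3 (-0.06 ± 0.12) and DHS 4 (0.34 ± 0.17) did not pass either. For Ptk2, the intronic DHS 2 was higher by 0.56 ± 0.14 (limma adjusted p = 0.00327), and the estimates of the other 3 sites lay between 0.15 and 0.35 without passing. Ptk2 DHS 2 was also the only member called for a change over time in Ikaros cells (1 of 36 by limma F-test, against 2.29% of all DHS, adjusted p = 0.0367). That call was lost in 13 of 27 alternatives, among them the replicate block (0.0571) and quantile normalization (0.0535). It was also lost with trends removed (0.54) and on leaving out any replicate number (0.173 to 0.57). The site read 2.58, 3.08 and 3.63 at 0 h and 4.62, 4.67 and 4.35 at 24 h in Ikaros cells. In Control cells no member was called for a change over time (0 of 36 by limma, against 0.148% of all DHS, with 7 at an unadjusted p under 0.05, as were 12.6% of all DHS), the smallest p being that of Itga5 DHS 2 (adjusted p = 0.151).

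At Cxcr4 none of the 3 sites passed. Its promoter, Cxcr4 DHS 2, ranged from 3.84 over a median of 4.49 to 4.67 in Control cells and from 4.15 over 4.45 to 4.67 in Ikaros cells from 2 h on (difference 0.03 ± 0.08, limma adjusted p = 0.838). The other Cxcr4 sites had estimates of -0.25 ± 0.13 and -0.15 ± 0.09. For Ctnnd1, p120 catenin, which holds cadherins at the membrane, the sites inside the gene did not pass (0.42 ± 0.20 and -0.25 ± 0.15). Ctnnd1 DHS 1, the promoter DHS of Btbd18, was higher by 0.24 ± 0.09 (limma adjusted p = 0.0327), a call lost in 12 of 39 alternatives, among them quantile normalization (0.138), trends removed (0.0853) and leaving out any replicate number (0.111 to 0.195). The single site near Cd9, a tetraspanin that sits beside integrins in the membrane, did not pass over 2 h to 24 h (0.17 ± 0.24, adjusted p = 0.628).

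At 0 h, before the drug according to the methods, 5 of 36 members were called, against 12.9% of all DHS, 3 of them higher in Ikaros cells (7.81% of all DHS) and 2 lower (5.04% of all DHS). Itgb1 DHS 1 read 3.09, 3.67 and 3.21 in Control cells and 4.64, 3.96 and 4.52 in Ikaros cells, which do not overlap (difference 1.05 ± 0.24, limma adjusted p = 0.00478). Itgb1 DHS 2 read 3.63, 3.63 and 1.78 in Control cells and 4.70, 4.31 and 3.96 in Ikaros cells (1.31 ± 0.36, adjusted p = 0.0163, and 0.201 without Control 0h replicate 6). Promoter DHS as a whole had a median difference of 0.34 at 0 h and -0.05 at 24 h. With trends against level, GC content and width removed, the difference at Itgb1 DHS 1 was 0.17 (adjusted p = 0.695), whereas that at Itgb1 DHS 2 was 1.11 (adjusted p = 0.0916). Cd44 DHS 3 was higher in Ikaros cells at 0 h too (0.73 ± 0.25, adjusted p = 0.048, and 0.0569 with the replicate block).

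The other members called at 0 h were lower in Ikaros cells. Itga6 DHS 6 read 5.43, 4.65 and 4.98 in Control cells and 3.73, 4.10 and 3.99 in Ikaros cells (-1.09 ± 0.32, limma adjusted p = 0.0234). At 24 h it read 3.97, 4.25 and 4.71 against 4.94, 5.07 and 4.65, where the lines overlapped and the mean was higher in Ikaros cells. Cd9 DHS 1 read 4.17, 4.07 and 4.15 in Control cells and 3.97, 0.20 and 3.45 in Ikaros cells (-1.59 ± 0.54, adjusted p = 0.0467). The call rests on Ikaros 0h replicate 5, without which the adjusted p was 0.498. The same library was also the lowest of all 36 at Itga6 DHS 2 (0.06), Itga6 DHS 8 (0.35) and Ctnnd1 DHS 3 (2.71). At Itga5 DHS 5 it read 4.38, as did Ikaros 0h replicate 4. It was not low throughout, being the highest of all 36 at Cd44 DHS 1 (4.94) and Itga6 DHS 1 (4.12). None of the 5 calls at 0 h held when only the 0 h groups were fitted (0 of 36) or when replicate 4 was left out (0 of 36).

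The change of the line difference from 0 h to 24 h is the Ikaros minus Control difference at 24 h less that at 0 h. It is signed and does not measure how far apart the lines ended. At Itga6 DHS 6 the lines changed order, from -1.09 at 0 h to a higher mean in Ikaros cells at 24 h. They did so too at Itga4 DHS 1 (0.29 at 0 h and -0.48 at 24 h). Of the 36 members 7 passed, against 6.26% of all DHS, 6 upward (2.85% of all DHS) and 1 downward (3.4% of all DHS). Those that rose were Itga5 DHS 1, DHS 2 and DHS 5, Itga6 DHS 6, Ptk2 DHS 2 and Cd44 DHS 5, and the promoter Itga4 DHS 1 fell. Among all promoter DHS 10.1% fell and the median change was -0.42, and with trends removed the change at Itga4 DHS 1 was -0.21 (adjusted p = 0.745). The 6 upward calls were lost with trends removed as well (limma adjusted p = 0.0716 to 0.324). No member passed with only the groups compared, or when a replicate number was left out of every group. At Itga5 DHS 1 the difference went from -0.03 to 1.77, and at Cd44 DHS 5 from -0.42 to 0.85. At Cd44 DHS 2 it went from 0.62 to 1.62, a change of 1.00 ± 0.65 that did not pass (limma adjusted p = 0.343). The 0 h cells were collected separately from the timed cells, so the time and the collection cannot be told apart in this change. An F-test of the interaction over all times called no member (0 of 36 by limma, against 1.1% of all DHS, with 11 at an unadjusted p under 0.05, as were 14.4% of all DHS), the smallest p belonging to Itga5 DHS 2 (adjusted p = 0.07) and Ptk2 DHS 2 (adjusted p = 0.0835).

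**Figure D5:**
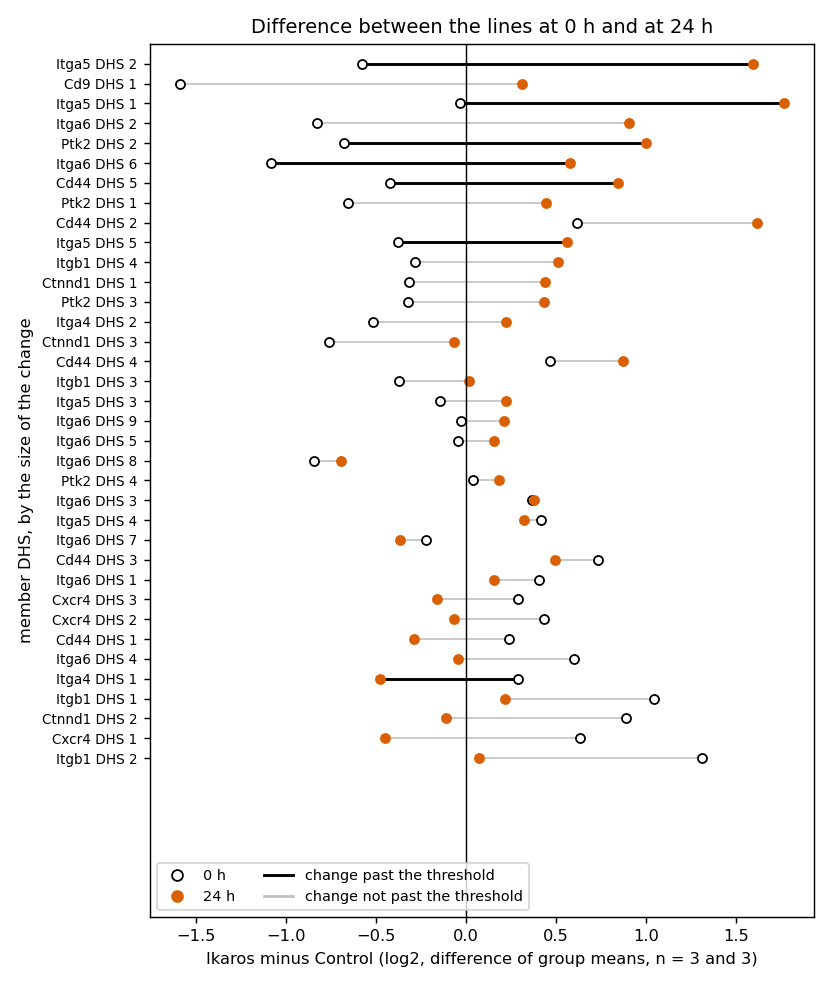
Ikaros minus Control difference on the log2 scale at 0 h (open) and 24 h (filled) for the 36 members, ordered by the change between them, from group means of 3 libraries each. Black bars mark the 7 members whose change passed the threshold, of which Itga4 DHS 1 moved downward and the other 6 upward.

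As a description of likeness, the main DHS of each gene was compared with the promoter DHS of other protein-coding genes by Pearson's r over the 36 libraries (10984 promoter DHS). The closest to the Itga4 promoter was the DHS shared by Bak1 and Ggnbp1 (r = 0.84), the closest to the Cxcr4 promoter was that shared by Sdha and Ccdc127 (r = 0.81), and the closest to the Cd44 promoter was that of Cited2 (r = 0.74). Between member promoters r ranged from -0.34 (Itga6 and Cd44) to 0.35 (Itgb1 and Cd44), which cannot be set against the former values, since those are the highest of all promoters compared. All points share the libraries, the groups and the authors' correction, so these r values are descriptive.

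Other adhesion and migration genes were read from a list of 103 genes in 7 groups, of which 59 had 83 promoter DHS in all. Over 2 h to 24 h, 9 of the 83 were higher and 12 lower in Ikaros cells by the same limma test, against 11.3% and 16.0% of all promoter DHS. At 24 h 0 of 83 passed by limma, where 0.212% of all promoter DHS were higher and 0.622% lower, so that few calls could arise among 83. Among cell surface receptors, 1 of 3 promoter DHS of Cd47, a surface protein that restrains phagocytosis, was higher by 0.97 ± 0.17 (limma adjusted p = 7.06e-05), and the other 2 had estimates of -0.32 (adjusted p = 0.0821) and -0.23 (adjusted p = 0.125). The promoter of Icam1, a ligand of leukocyte integrins, was lower by 0.51 ± 0.10 (adjusted p = 0.000578). The promoter of S1pr2, a receptor for sphingosine 1-phosphate, was lower by 0.54 ± 0.10 (adjusted p = 0.000102). The promoter of Cd53, a tetraspanin, was higher by 0.42 ± 0.08 (adjusted p = 0.000472), as was that of Was, an actin regulator, by 0.47 ± 0.08 (adjusted p = 0.00014). Among other integrin chains, 5 of 22 genes had a promoter DHS, and only Itgb3 passed (0.42 ± 0.15, adjusted p = 0.0342).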

How the data were processed

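DNase-seq was measured in 36 libraries of 12 groups. The authors trimmed reads, aligned them to mm10 with Bowtie (Bowtie2 in the methods), called narrow and broad peaks with HOMER, merged them into 1 set of DHS, counted reads with bedtools, removed low DHS, scaled by RPKM and TMM and removed noise with ARSyN. The deposited values are log2 of this density. The base was read from the values, since base e would give impossible sums. Versions and the depth of each library are not given in the sources used here.

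Members were DHS that overlapped a gene body or its 10 kb flanks. The members and gene lists were chosen with earlier results of these data known. A linear model with 12 group means was fitted to all 52788 DHS with limma 3.58.1 (R 4.3.3, trended variance, two-sided), adjusted over all DHS by Benjamini-Hochberg at 0.05, and tested on simulated data. Named were the main promoter DHS of each gene, the members past the threshold (up to 12 with the smallest p in the averaged and 24 h comparisons, up to 3 in each direction elsewhere), the 2 with the smallest p where none passed, and the extremes in level. Further members past the threshold and those given to complete a gene were named after their values were seen. Fold changes are powers of 2 of the estimates. Alternatives were quantile normalization, leaving out the lowest 25% of DHS by level, removing trends against level, GC content and width, a spread per group, only the groups compared, gene bodies only, a replicate block, and leaving out libraries.

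Replicates 4, 5 and 6 are batches 11, 12 and 13 in the labels, so the numbers pair the samples. Residuals of same-numbered Ikaros and Control libraries of a time correlated by -0.175 to 0.183, and 3 of 18 pairs exceeded 0.1.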

Additional observations from a re-analysis of the deposited data

Results flagged for a closer look

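At 7 members the difference between the lines changed from 0 h to 24 h by a test of that change (limma adjusted p = 0.0188 to 0.0365). The change on the log2 scale was 2.18 at Itga5 DHS 2, 1.80 at Itga5 DHS 1, 1.68 at Ptk2 DHS 2, 1.66 at Itga6 DHS 6, 1.27 at Cd44 DHS 5, 0.94 at Itga5 DHS 5 and -0.77 at Itga4 DHS 1. No member passed with trends removed, with only the groups compared, or when a replicate number (4, 5 or 6) was left out of every group. The 0 h cells were collected apart from the timed cells, so time and collection cannot be told apart.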

How the results depend on the processing

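Counts of members called moved as follows, and the cause was not tested except where stated. At 0 h, 5 became 1 with trends removed, 1 with a spread per group and 0 with only the groups compared. At 6 h, 1 became 0 with the replicate block and with only the groups compared. At 12 h, 2 became 1 without the lowest 25% of DHS, with trends removed and with the block, 4 with a spread per group and 0 with only the groups compared. At 18 h, 2 became 1 without the lowest 25% of DHS and with trends removed, and 0 with only the groups compared. At 24 h, 1 became 3 with quantile normalization, 6 with a spread per group and 3 with only the groups compared. Over 2 h to 24 h, 16 became 10 without the lowest 25% of DHS, which removes 5 of the 16 (Itga6 DHS 8 and Cd44 DHS 2, 3, 4 and 5) from the fit, as it does Cd44 DHS 2 at 18 h. For the change from 0 h to 24 h, 7 became 4 with quantile normalization, 0 with trends removed, 3 with a spread per group and 0 with only the groups compared. For time in Ikaros cells, 1 became 2 with quantile normalization (Ptk2 DHS 2 not among them), 0 with trends removed, 0 with the replicate block and 2 with only the groups compared.

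Leaving out libraries or replicate numbers gave 0 to 7 calls at 0 h, 0 to 2 at 2 h, 0 at 6 h, 0 to 2 at 12 h and 18 h, 0 to 1 at 24 h, 7 to 16 over 2 h to 24 h, 0 to 6 for the change, and 0 to 1 for the interaction and for time in either line.

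Estimates that changed sign did not pass in any of these fits. Itgb1 DHS 2 at 24 h (0.07) was -0.11 with quantile normalization, -0.022 with trends removed and -0.15 to 0.24 on leaving out libraries. Itgb1 DHS 2 over 2 h to 24 h (0.06) was -0.031 with quantile normalization and -0.086 with trends removed. Cxcr4 DHS 2 at 24 h (-0.07) was 0.0397 with trends removed and -0.195 to 0.076 on leaving out libraries, and over 2 h to 24 h (0.03) the latter gave -0.0329 to 0.12. Ctnnd1 DHS 3 at 24 h (-0.06) was 0.00079 with quantile normalization and -0.62 to 0.22 on leaving out libraries. Cd9 DHS 1 over 2 h to 24 h (0.17) was -0.0525 to 0.289 on leaving out libraries. With no counts per library, the number of libraries limits the precision.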
